A study of Flaveria robusta and Flaveria ramosissima and Flaveria trinervia with 18 samples.

Results

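In leaves of Flaveria grown under control light, 205 of the 30040 gene rows measured were at least 4-fold more abundant in the C4 species F. trinervia than in both the C3–C4 intermediate species F. ramosissima and the C3 species F. robusta, while the other two were within 2-fold of each other. In the high-light libraries, which played no part in choosing these rows, 176 of the 205 were again higher in F. trinervia than in both other species (limma, adjusted p at most 0.05). Of all rows tested, 23.5% were higher than in F. robusta and 36.3% higher than in F. ramosissima. Among the 6617 rows that met the rule's minimum TPM levels, these shares were 29.7% and 54.5%. The share higher than both was not counted. The members were chosen by measured values, and the choice depends on the scale of the libraries: after scaling by the median ratio the rule gave 112 rows, of which 77 were members, and 102 of the 205 were under 4 times F. ramosissima. After this scaling 23 members were under 4 times F. robusta, and F. ramosissima was at least 2 times F. robusta in 50. Control means were taken over the 3 control libraries of each species. A row was a member where all 3 control means were at least 1 TPM, the F. trinervia mean was at least 10 TPM and at least 4 times each of the others, and the ratio of F. ramosissima to F. robusta was above 0.5 and below 2. TPM, the usual length-corrected measure of transcript abundance, expresses each row as a part of the total of its own library. The files name rows only by a number and do not pair these numbers with gene names, so that no function, position or sequence is given for a member. Members are described by their rank in F. trinervia control abundance, where rank 1 is the most abundant, and 4 row numbers are printed.

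C4 photosynthesis concentrates CO2 around Rubisco by dividing the work between mesophyll and bundle sheath cells, which in most C4 plants depends on high transcript levels of enzymes and transporters that C3 plants hold at low levels. Flaveria is a genus of the daisy family in which closely related species use the C3 pathway, the C4 pathway or intermediate forms. C3–C4 intermediates such as F. ramosissima recapture CO2 released by photorespiration in the bundle sheath, and some run part of a C4 cycle. Leaves under strong light are known to adjust light harvesting, electron transport and protection from excess excitation.

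RNA of newly expanded mature leaves was read in paired-end mode (150 bp) in 6 groups of 3 libraries, 18 in all. F. trinervia, F. ramosissima and F. robusta each had a high-light group at 1400 µmol photons m−2 s−1 and a control group at 500 µmol photons m−2 s−1. No genotype, ecotype or plant age is given in the sources used here, and neither is the length of the high-light exposure. The growth description names a chamber light below either level. Each kind of photosynthesis was represented by a single species, so that kind of photosynthesis and species cannot be told apart. The reference for the reads and the way in which rows were matched between species are not given either, so that a level difference and a difference in how well reads of a species matched a row cannot be told apart. Fewer cells of a type and less RNA per cell cannot be told apart in whole leaves, and without gene names the tissue could not be checked against its markers. Whether the replicates were separate plants is not stated in the labels, so the p-values reflect the spread among these libraries alone, and that spread may be technical.

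Library totals over the rows used were between 903641 and 929124 TPM. Read depth cannot be recovered from TPM and is unknown here, so no counting interval was computed. In F. trinervia, high light replicate 2 and control replicate 3 stood apart from the other libraries of their groups. Over the 205 members their log2 deviations from their group means correlated at r = 0.915, a value across genes, which are not independent replicates. Over the 11342 rows with a mean of at least 5 TPM the correlation was 0.792, so it was not particular to the members. The F. trinervia light responses below are therefore also given without these 2 libraries.

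The steps of the rule show how narrow the choice was. All 3 control means reached 1 TPM in 10829 rows, and the F. trinervia mean also reached 10 TPM in 6617 of them, called the level rows below. Of the level rows, 579 were at least 4 times F. robusta, 1212 were at least 4 times F. ramosissima and 304 met both criteria. Among those 304, F. ramosissima was at least 2 times F. robusta in 41 rows and at most 0.5 times in 58 rows, which left 205.

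The thresholds cut through a continuous range of values. The smaller of the ratios to the other species was 4.001, 4.004 and 4.024 in the members just inside the 4-fold limit, and 3.9996, 3.98 and 3.98 in the rows just outside. The F. trinervia control means nearest the 10 TPM limit were 10, 10.1 and 10.1 TPM inside and 9.56, 9.16 and 9.03 TPM outside. The ratio of F. ramosissima to F. robusta nearest its limits was 1.98 and 0.502 inside, and 2.08 and 0.4999 outside. In 51 members the smaller control ratio was under 4.5, in 43 it was at least 8, and in 12 it was at least 16. Leaving out each of the 9 control libraries in turn gave 191 to 220 rows, and 106 members stayed under all 9 omissions.

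**Figure D1:**
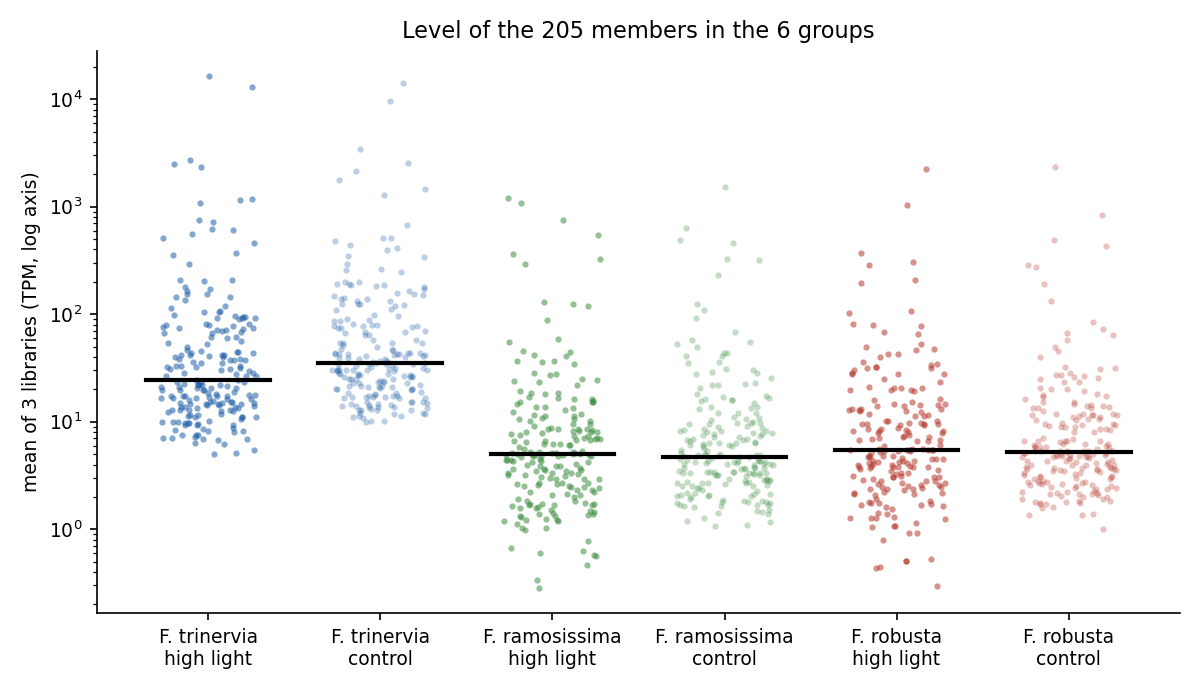
Mean TPM of the 205 members in each group of 3 libraries, on a log axis, with F. trinervia first and high light before control within each species. The medians are 24.4 and 34.8 TPM in F. trinervia, against 4.97 and 4.72 TPM in F. ramosissima and 5.45 and 5.19 TPM in F. robusta. The control groups were used to choose the members.

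The members spanned more than 3 orders of magnitude in F. trinervia. Their mean levels were 4.99 to 16320 TPM in high light (median 24.4) and 10 to 14228 TPM in control light (median 34.8). In F. ramosissima they were 0.287 to 1193 TPM in high light (median 4.97) and 1.08 to 1514 TPM in control light (median 4.72). In F. robusta they were 0.297 to 2248 TPM in high light (median 5.45) and 1.00 to 2334 TPM in control light (median 5.19). The plot of mean levels by group shows that the ranges of the species overlap, while the median of the members lies higher in both F. trinervia groups. The control medians follow from the rule and are a description.

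Together the members made up 5.73% ± 0.308 of the listed TPM in high light and 5.50% ± 0.0303 in control light in F. trinervia (SD, n = 3 each). The same rows made up 0.722% ± 0.0857 in high light and 0.658% ± 0.0362 in control light in F. ramosissima. In F. robusta they made up 0.766% ± 0.0588 in high light and 0.753% ± 0.0637 in control light. A pair of rows carried much of the F. trinervia share. Without the members of rank 1 and 2 it was 2.56% ± 0.0345 in high light and 2.93% ± 0.0451 in control light.

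The replicate spread of the members was narrower in F. trinervia than in the other species. The median coefficient of variation (SD as a percent of the mean, n = 3 libraries) was 15.3% in high light and 14.7% in control light in F. trinervia. It was 27.2% and 27.9% in F. ramosissima, and 33.2% and 25.7% in F. robusta, in the same order of light. In the level rows the medians were 11.8% and 11.1%, 22.1% and 23.5%, and 29.8% and 19.4%, with the species in the same order. The rule put the members at a higher level in F. trinervia, and the level rows had to reach 10 TPM in F. trinervia only. The spreads are therefore compared at unlike levels, and no trait of a species is read from them. Single members were far less even, since 16 had a coefficient above 50% in the F. trinervia control group and 4 had one above 100%.

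The member of rank 1 was at 17560, 13831 and 17571 TPM in high light and at 15992, 14882 and 11812 TPM in control light in F. trinervia. It was at 414, 529 and 702 TPM in high light and at 325, 494 and 550 TPM in control light in F. ramosissima. It was at 191, 181 and 209 TPM in high light and at 266, 185 and 373 TPM in control light in F. robusta. In high light all 3 F. trinervia libraries lay above all 6 others, and the difference was 6.38 against F. robusta (log2, adjusted p = 1.13e-11) and 4.92 against F. ramosissima (adjusted p = 1.22e-10) in limma. It was the largest log2 difference to F. robusta among the members.

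Second in abundance, the member of rank 2 was at 13823, 12388 and 12647 TPM in high light and at 8453, 8853 and 11477 TPM in control light in F. trinervia. Under high light it was at 924, 1141 and 1180 TPM in F. ramosissima and at 1856, 2933 and 1956 TPM in F. robusta. Its F. trinervia groups did not overlap, but its light response of 0.44 on the log2 scale did not pass the test (adjusted p = 0.146). In high light F. robusta exceeded F. ramosissima in this member, and also in the member of rank 8, which had 1258, 834 and 1183 TPM in F. trinervia, 40.4, 31.3 and 31.8 TPM in F. ramosissima and 114, 100 and 108 TPM in F. robusta.

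The widest ratios of high-light means lay outside the most abundant members. The member of rank 43 had 83.1, 106 and 85.7 TPM in F. trinervia, 7.11, 8.29 and 2.23 TPM in F. ramosissima and 0.15, 0.05 and 1.14 TPM in F. robusta, which put F. trinervia at 205 times F. robusta. Rank 49 had 85.7, 112 and 100 TPM in F. trinervia, 0.83, 1.07 and 1.67 TPM in F. ramosissima and 1.57, 1.53 and 2.06 TPM in F. robusta, or 83.3 times F. ramosissima. Both ratios rest on divisors near or under 1 TPM.

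Species differences in high light could be tested because the rule used none of these libraries. The test was limma on log2(TPM + 1), 2-sided, in a model of all 6 groups, with p-values adjusted over the 18911 rows of mean 1 TPM or more. On this scale the pseudocount of 1 shrinks the differences of scarce rows. All 205 members passed the abundance filter, which the rule's F. trinervia level made certain. Against F. robusta, 186 members were higher in F. trinervia, where 23.5% of all rows tested and 29.7% of the level rows were higher. A single member was lower, where 27.9% of all rows were lower. Against F. ramosissima, 191 members were higher, where 36.3% of all rows and 54.5% of the level rows were higher. None was lower, also at an unadjusted p under 0.05, where 29.2% of all rows were lower.

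**Figure D2:**
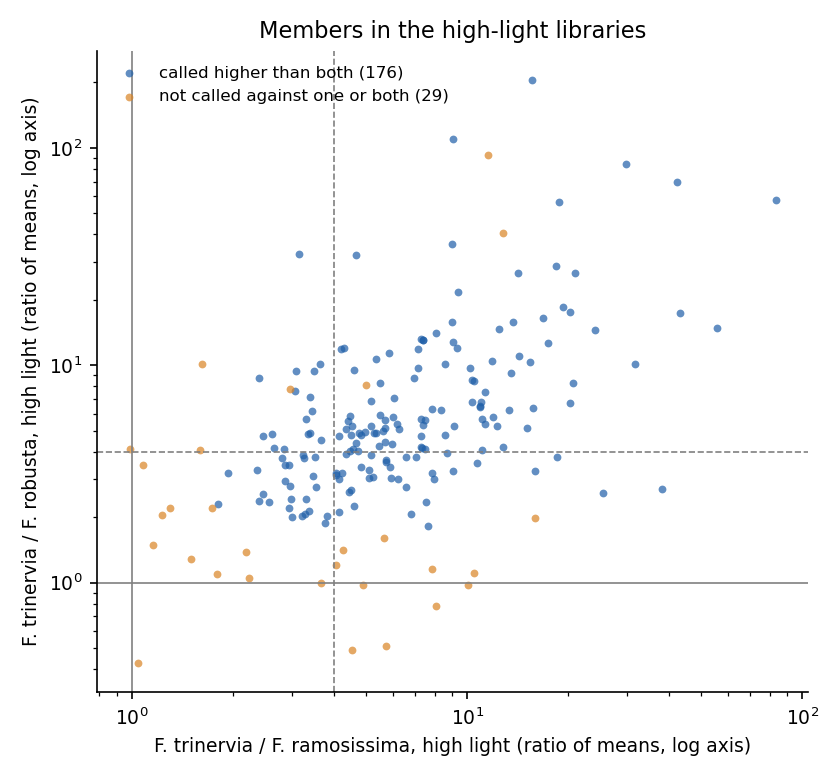
Ratio of mean TPM in high light of F. trinervia to F. robusta against the ratio of F. trinervia to F. ramosissima for the 205 members, both on log axes, with lines at 1 and at the 4-fold limit of the rule and the 176 members called higher than both in blue, the others in orange. Of the members, 104 lie above 4-fold for both ratios, and the medians are 4.77 and 5.67.

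The median log2 difference of the members in high light was 2.04 against F. robusta (range −1.20 to 6.38) and 2.21 against F. ramosissima (range −0.01 to 6.33). It was 0.00 and 0.22 over all rows tested and 0.17 and 0.79 over the level rows. Both tests were passed by 176 members, 10 passed only against F. robusta, 15 only against F. ramosissima and 4 neither. The share of all rows tested that passed both was not counted. In the plain values, all 3 F. trinervia libraries lay above all 6 libraries of the other species in 176 members, or 85.9%, where 18.8% of all rows tested showed this. Scaling each library by the median ratio to the others lifted F. ramosissima by 0.76 (log2) against both other species, and moved the median of all rows tested against F. ramosissima to −0.36. After it, 185 members were higher than in F. robusta and 1 lower, where 26.0% of all rows were higher and 26.8% lower, while 170 were higher than in F. ramosissima and 1 lower, where 21.8% of all rows were then higher and 41.8% lower.

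The size of the difference held less often than its direction. In high light the F. trinervia mean was above both other means in 197 members, at least 2 times both in 176, and at least 4 times both in 104. At least 8 times both was reached by 36 members and at least 16 times both by 10. The shares of all rows tested that reached these ratios were not counted. The median ratio to F. robusta was 4.77 in high light and 6.22 in control light, and the median ratio to F. ramosissima was 5.67 in high light and 6.89 in control light. The control ratios had a floor of 4 by the rule and the high-light ratios had none, so the lower high-light medians are no measure of a light effect.

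How many members stayed at 4-fold moved with how far inside the limit they had been. It was 28 of the 81 members with a smaller control ratio of 4 to 5, 42 of the 81 with 5 to 8 and 34 of the 43 with 8 or more. By abundance, it was 37 of 85 members at 10 to 30 TPM in F. trinervia control leaves, 38 of 73 at 30 to 100 TPM, 24 of 39 at 100 to 1000 TPM and 5 of 8 above. Of the 101 members under 4-fold, 45 fell short only against F. robusta, 20 only against F. ramosissima and 36 against both. The whole rule applied to the high-light libraries was met by 164 rows, of which 73 were members, or 44.5% of the 164 and 35.6% of the 205.

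The rule bounded the ratio of F. ramosissima to F. robusta in control light and left it free in high light, so that a wider spread in high light follows from the choice of members. The ratio of their high-light means had a median of 0.862 (range 0.0711 to 13.2). It lay between 0.5 and 2 in 138 members, was at least 2 in 24 and at most 0.5 in 43. In limma 27 members were higher in F. ramosissima, where 29.3% of all rows were higher, and 56 were lower, where 40.7% were lower. The direction of this count turned with scaling by the median ratio, which gave 80 higher and 16 lower, where 42.9% of all rows were then higher and 23.99% lower. Of the 176 members higher in F. trinervia than in both others, 113 showed no difference past the threshold between F. ramosissima and F. robusta. The share of all rows tested with this pattern was not counted. Among the 197 members with F. trinervia highest, F. ramosissima was second in 79 and F. robusta in 118.

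In 8 members another species had the higher mean in high light, F. robusta in 7 and F. ramosissima in 1. F. ramosissima exceeded F. trinervia in the member of rank 4, which had 1266, 924 and 1331 TPM in F. trinervia, 1469, 1202 and 909 TPM in F. ramosissima and 294, 231 and 330 TPM in F. robusta. Its F. trinervia and F. ramosissima libraries overlapped (log2 difference −0.01, adjusted p = 0.972). Of the 7, the member of rank 100 was the single one called lower than in F. robusta, with 14.6, 8.14 and 16.0 TPM in F. trinervia against 27.7, 38.2 and 24.8 TPM in F. robusta (log2 difference −1.20, adjusted p = 0.00957, limma).

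The light responses rest on the control libraries that chose the members. Chance deviations in those libraries enter both the choice and the response, with a tilt toward a fall in F. trinervia and a rise in the other species. The counts below are a description beside those of all rows, and nothing is read from them.

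In F. trinervia, limma called 1 member higher in high light, where 1.54% of all rows tested and 3.13% of the level rows were higher. It called 21 members lower, or 10.2%, where 5.39% of all rows and 6.98% of the level rows were lower. The 21 changes ran from −0.76 to −2.21 on the log2 scale with a median of −1.16. The median change of all 205 members was −0.45, against −0.12 over all rows and −0.29 over the level rows, with 163 members below 0 and 42 above. All 3 high-light libraries lay below all 3 control libraries in 112 members, or 54.6%, where 36.3% of all rows did so, and above them in 8 members, or 3.9%, where 7.5% did. Counts beside other level rows of like abundance are given below. Without high light replicate 2 and control replicate 3, which left 2 libraries a group, 4 members were called lower and 0 higher (adjusted, limma), where 1.12% of all rows were lower and 0.712% higher. Leaving out high light replicate 1, 2 or 3 alone gave 7, 4 or 6 lower, where 2.09%, 1.13% and 1.75% of all rows were lower. Control replicate 1 or 2 gave 3 each, where 0.874% and 0.811% were lower, and control replicate 3 gave 19, where 3.87% were. After scaling by the median ratio, 7 were called lower and 3 higher, while over all rows the shares turned to 1.83% lower and 3.85% higher. The members' median change was then −0.16, against 0.00 over all rows. With quantile normalization it was −0.27, against 0.00 over all rows. The main model shared 1 spread per row over all 18 libraries. With F. trinervia fitted alone 96 were called lower and 7 higher, where 36.3% of all rows were lower and 6.82% higher. Species weights gave 112 lower and 11 higher, where 30.7% of all rows were lower and 6.95% higher.

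**Figure D3:**
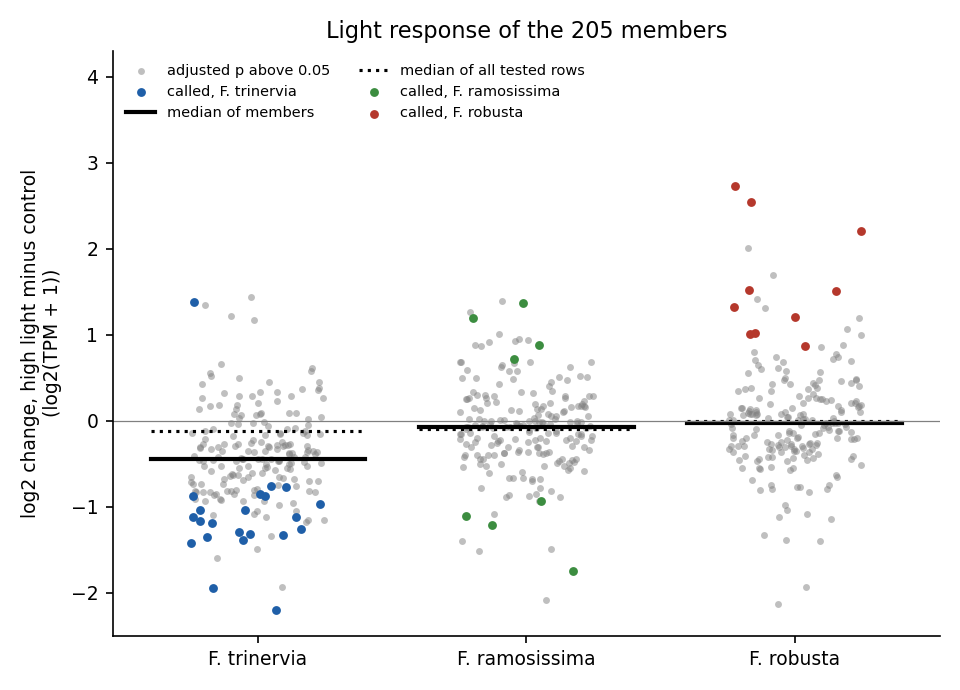
Log2 change in high light over control, on log2(TPM + 1), of the 205 members in F. trinervia, F. ramosissima and F. robusta, with called members coloured, others grey, the members' median as a solid bar and that of all rows tested dotted. The members' medians are −0.45, −0.07 and −0.02, and the widest rise, 2.73, was in F. robusta.

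By abundance, the median change in F. trinervia was −0.51 in the 85 members at 10 to 30 TPM, against −0.35 in the 3492 other level rows of that class. It was −0.38 in the 73 members at 30 to 100 TPM, against −0.27 in 2031 other rows, and −0.41 in the 39 members at 100 to 1000 TPM, against −0.0096 in 799 other rows. In the 8 members above 1000 TPM it was −0.026, against −0.080 in 90 other rows. Full falls, with every high-light library below every control library, were counted in the same classes. At 10 to 30 TPM they were seen in 52 of 85 members and 1920 of 3492 other rows. At 30 to 100 TPM it was 40 of 73 and 1010 of 2031. At 100 to 1000 TPM it was 18 of 39 and 239 of 799, and above that 2 of 8 and 27 of 90. Full rises, the reverse, were seen in 2, 1, 4 and 1 members and 298, 303, 252 and 25 other rows, by class.

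Gene26787, of rank 18, was the one member called higher in F. trinervia. It was at 711, 850 and 709 TPM in high light and at 280, 268 and 326 TPM in control light in F. trinervia. Both groups were tight and did not overlap, and the log2 change was 1.38 ± 0.32 (SE, adjusted p = 0.0215, limma). In F. ramosissima it was at 35.0, 28.8 and 44.4 TPM in high light and at 30.6, 39.3 and 61.7 TPM in control light. In F. robusta it was at 26.8, 15.2 and 43.3 TPM in high light and at 38.7, 31.4 and 25.5 TPM in control light. The light groups overlapped in both of these species. The high-light level in F. trinervia stood above F. robusta by 4.80 (adjusted p = 3.7e-09) and above F. ramosissima by 4.37 (adjusted p = 6.8e-09) on the log2 scale. The difference in light response missed the threshold, at 1.63 against F. robusta (adjusted p = 0.0608) and 1.61 against F. ramosissima (adjusted p = 0.0631). Without both libraries that stood apart the change was 1.37 (adjusted p = 0.123), and the call was also lost, with an adjusted p of 0.056 to 0.102, when high light replicate 1, 2 or 3 or control replicate 1 or 2 was left out.

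Gene13473, of rank 77, had the largest rise in value and was not called. It was at 83.3, 185 and 87.2 TPM in high light and at 23.5, 31.5 and 86.7 TPM in control light in F. trinervia. Control replicate 3 lay between the high-light values, and the change of 1.44 ± 0.72 (SE) had an adjusted p of 0.248 in limma. In high light it was at 1.49, 4.34 and 8.98 TPM in F. ramosissima and at 1.75, 14.3 and 8.47 TPM in F. robusta, all below the 3 F. trinervia libraries.

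Gene15695, of rank 119, had the largest fall. It was at 8.29, 2.60 and 7.87 TPM in high light and at 38.1, 26.9 and 25.7 TPM in control light in F. trinervia, and fell by 2.21 on the log2 scale (SE 0.47, adjusted p = 0.0143, limma). In high light it was at 1.70, 5.06 and 4.06 TPM in F. ramosissima and at 1.59, 1.84 and 5.05 TPM in F. robusta, so that the species overlapped. F. trinervia was not called different from F. robusta (log2 difference 0.91, adjusted p = 0.119) or from F. ramosissima (0.61, adjusted p = 0.261). Without both libraries that stood apart the change was −1.86 (adjusted p = 0.108), and without high light replicate 2, control replicate 1 or control replicate 2 alone the adjusted p was 0.0611 to 0.0834. It was 0.0502 with a pseudocount of 0.1 and 0.0719 with quantile normalization. F. trinervia was higher than F. robusta by 1.36 (adjusted p = 0.0288) without its high light replicate 2, and by 1.30 (adjusted p = 0.0419) without F. robusta high light replicate 3.

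Gene18493, of rank 124, had the next largest fall among those called. It was at 6.28, 6.84 and 6.11 TPM in high light and at 35.2, 31.3 and 18.6 TPM in control light in F. trinervia, a log2 change of −1.94 ± 0.52 (SE, adjusted p = 0.0377, limma). In F. robusta it was at 19.8, 2.82 and 15.0 TPM in high light and at 5.11, 2.06 and 6.47 TPM in control light, with overlapping groups. In F. ramosissima it was at 1.25, 0.54 and 1.56 TPM in high light and at 3.58, 1.42 and 3.88 TPM in control light. Under high light F. trinervia differed from F. robusta by −0.55 (adjusted p = 0.427). This difference was −1.30 (adjusted p = 0.0119) without F. robusta high light replicate 2, which lay far below the others. Without both libraries that stood apart the F. trinervia change was −2.25 (adjusted p = 0.117), and without high light replicate 1, 2 or 3 or control replicate 1 or 2 alone the adjusted p was 0.0934 to 0.15. It was 0.0733 with a pseudocount of 0.1 and 0.0505 with quantile normalization.

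**Figure D4:**
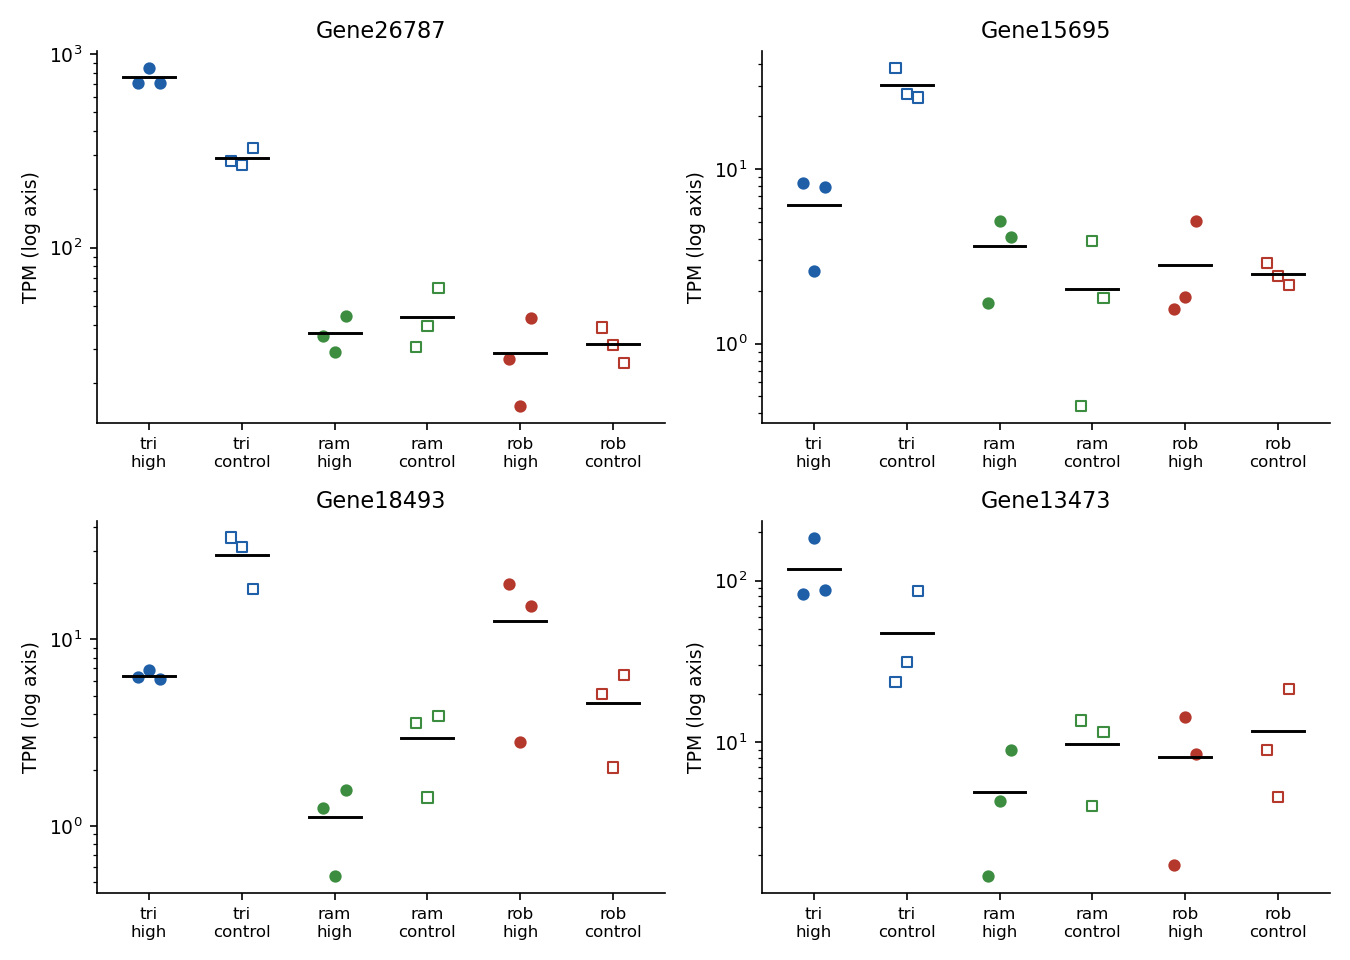
TPM of each library for Gene26787, Gene15695, Gene18493 and Gene13473 on log axes, in F. trinervia (tri), F. ramosissima (ram) and F. robusta (rob). Filled circles are high light, open squares are control and bars are group means. Gene26787 lies between 709 and 850 TPM in F. trinervia high light and between 268 and 326 TPM in control.

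The member of rank 4 was among the 21, and its values in F. ramosissima lay in the other direction. It was at 1266, 924 and 1331 TPM in high light and at 2988, 2670 and 2024 TPM in control light in F. trinervia, a log2 change of −1.12 (adjusted p = 0.0214, limma). In F. ramosissima it was at 1469, 1202 and 909 TPM in high light and at 454, 572 and 882 TPM in control light, a change of 0.94 that missed the threshold (adjusted p = 0.0747). The responses differed by −2.06 (adjusted p = 0.0116). Of the 21 members called lower in F. trinervia, 4 were still at least 4 times both other species in high light.

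In F. robusta 10 members were called higher in high light, or 4.88%, where 1.03% of all rows were higher. None was called lower (17 at an unadjusted p under 0.05), where 1.11% of all rows were lower. The 10 rises ran from 0.86 to 2.73 on the log2 scale. In all 10 the F. trinervia mean was lower in high light than in control light, and in none did F. trinervia remain at 4 times F. robusta. The 3 high-light libraries exceeded every control library in 24 members, where 4.63% of all rows did, and lay below them all in another 24, where 7.82% did. The median change of the 205 members was −0.02, against 0.00 over all rows. Without high light replicate 3 a single member was called, where 0.454% of all rows were, and without control replicate 2 it was 4, where 0.769% were. With F. robusta fitted alone 0 were called, where 0.0131% of all rows were. Scaling by the median ratio gave 11 higher and 2 lower, where 2.11% of all rows were then higher and 1.10% lower.

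The widest of these rises was in the member of rank 27, at 46.6, 13.4 and 41.6 TPM in high light and at 2.37, 1.98 and 9.01 TPM in control light in F. robusta (log2 change 2.73, adjusted p = 0.0319, limma). In F. trinervia it was at 89.5, 36.3 and 74.8 TPM in high light and at 238, 203 and 116 TPM in control light, groups that did not overlap, and its change of −1.49 missed the threshold (adjusted p = 0.149). Rank 111 was at 36.4, 16.2 and 30.7 TPM in high light and at 2.26, 1.75 and 10.4 TPM in control light in F. robusta (log2 change 2.55, adjusted p = 0.0146). Rank 100 was at 27.7, 38.2 and 24.8 TPM in high light and at 6.43, 7.09 and 3.94 TPM in control light there (log2 change 2.20, adjusted p = 0.00652). Under high light both were at a higher mean in F. robusta than in F. trinervia, where rank 111 had 16.4, 9.57 and 15.0 TPM and rank 100 had 14.6, 8.14 and 16.0 TPM.

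In F. ramosissima 4 members were called higher in high light, where 0.788% of all rows were higher, and 4 were called lower, where 1.55% were lower. The rises ran from 0.72 to 1.37 and the falls from −0.94 to −1.75 on the log2 scale. The 3 high-light libraries exceeded every control library in 19 members, where 4.66% of all rows did, and lay below them all in 24, where 9.96% did. A single member, of rank 103, was called higher in both F. ramosissima and F. robusta. It was at 7.47, 8.79 and 8.42 TPM in high light and at 4.45, 4.14 and 3.50 TPM in control light in F. ramosissima (adjusted p = 0.043), and at 11.2, 5.43 and 7.52 TPM in high light and at 3.92, 4.27 and 3.27 TPM in control light in F. robusta (adjusted p = 0.049). Neither pair of groups overlapped. Without F. ramosissima high light replicate 1 or 2 the count of calls was 3 or 1 in place of 8, where 2.29% and 1.32% of all rows were called. Without its control replicate 1, 2 or 3 it was 4, 13 or 5, where 1.47%, 7.17% and 1.78% were, and with the species fitted alone it was 0, where 0.0222% were. Scaling by the median ratio gave 7 higher and 4 lower, where 2.97% of all rows were then higher and 2.05% lower.

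The difference between light responses was tested as an interaction. Against F. robusta, the response of F. trinervia was lower in 19 members, where 2.29% of all rows were lower, and higher in none (8 at an unadjusted p under 0.05), where 0.809% were higher. Against F. ramosissima it was lower in 14 members, where 1.95% of all rows were lower, and higher in none (8 at an unadjusted p under 0.05), where 1.24% were higher. Both differences were called in 8 members and either in 25. The shares of all rows tested called in both or in either were not counted. Both share the F. trinervia libraries and the control libraries that chose the members. Without the 2 F. trinervia libraries that stood apart, 5 members were called against F. robusta, where 1.38% of all rows were called, and 7 against F. ramosissima, where 1.72% were. Against F. robusta the count was 6 to 10 without F. trinervia high light replicate 1, 2 or 3 or control replicate 1 or 2, where 0.669% to 1.23% of all rows were called, 9 without F. robusta high light replicate 1 or 3, where 1.62% and 1.07% of all rows were called, and 46 without F. robusta high light replicate 2, where the calls over all rows were also more frequent, at 13%. Against F. ramosissima it was 5 to 9 without those same 5 F. trinervia libraries, where 0.6% to 1.28% of all rows were called. Scaling by the median ratio gave 4 higher and 17 lower against F. robusta, where 2.62% of all rows were then higher and 2.57% lower, and 3 higher and 15 lower against F. ramosissima, where 2.61% were higher and 2.86% lower.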

How the data were processed

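The authors deposited 1 table of TPM values for 18 libraries. RSEM, an estimator of transcript abundance, and edgeR are listed in the submitters' processing notes, without versions or roles. The sources used here give neither aligner nor reference. The row that lacked its line end (1 row) was left out. Columns marked H were read as high light and those marked L as control, the only other light level of each species. No value column was left without a sample.

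Values were transformed to log2(TPM + 1). The 18911 rows that averaged 1 TPM or more across the 18 libraries entered limma (3.58.1, under R 4.3.3, eBayes with trend) in 1 model of 6 groups with 12 residual degrees of freedom, and p-values were adjusted by Benjamini-Hochberg over all rows tested, with a threshold of 0.05. Means and SDs were taken over 3 libraries. The script was run on simulated data with log2 changes added to some rows in F. trinervia high light. Only calls in the F. trinervia light response were checked. The simulation held neither the choice of members nor libraries that stood apart, so it says nothing about these. The members, lists and tests were chosen with earlier results of these data known. Lists of C4 cycle, transporter, Calvin cycle, photorespiration and cyclic electron flow genes and of mesophyll and bundle sheath markers could not be used, because rows carry numbers only. The row numbers named are, among members called in the F. trinervia light response with groups that did not overlap, the 2 largest rises and the 2 largest falls. Only 1 rise was called, so the member with the largest rise in value was added. Members given by rank were chosen after their values were seen.

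Alternatives were a pseudocount of 0.1, no filter, a filter at 5 TPM, median-ratio scaling, quantile normalization, a replicate block, species weights (arrayWeights), only the species compared, and leaving out each library. For the rule they were the median in place of the mean, median-ratio scaling, limits of 3 and 5 times, the high-light libraries, and leaving out each control library. F. trinervia without high light replicate 2 and control replicate 3 was added after seeing the data.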

Additional observations from a re-analysis of the deposited data

Results flagged for a closer look

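The difference in light response between F. trinervia and another species passed the threshold for Gene15695 and Gene18493. The test shares the control libraries that chose the members, with a tilt toward a lower response in F. trinervia, so the values are a description and support nothing. For Gene15695 the difference was −2.89 on the log2 scale against F. ramosissima (adjusted p = 0.0304, limma), and −2.22 against F. robusta, which was not called (adjusted p = 0.0772). For Gene18493 it was −3.0 against F. robusta (adjusted p = 0.0401), and −1.07 against F. ramosissima, which was not called (adjusted p = 0.468). Over all members 19 differences were called against F. robusta and 14 against F. ramosissima, all of them lower in F. trinervia. Of all rows tested, 2.29% and 1.95% were lower.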

How the results depend on the processing

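The 186 and 191 members higher in F. trinervia under high light stayed within 1.5 times of these counts under every alternative run, as did the 83 members called between F. ramosissima and F. robusta. The direction of the 83 was not stable. In F. ramosissima 27 were higher and 56 lower, against 80 and 16 with median-ratio scaling. Over all rows, 29.3% higher and 40.7% lower turned to 42.9% and 23.99%. The light response counts did not stay within 1.5 times. The members called lower in F. trinervia, 21, became 11 with a pseudocount of 0.1, 7 with median-ratio scaling and 6 with quantile normalization. Of all rows tested, 3.71%, 1.83% and 1.82% were then lower. They became 112 with species weights and 96 with F. trinervia fitted alone, where 30.7% and 36.3% of all rows tested were lower. The 1 called higher became 3 with median-ratio scaling, 2 with quantile normalization, 11 with species weights and 7 with F. trinervia alone. Of all rows tested, 3.85%, 2.82%, 6.95% and 6.82% were then higher, in the same order. In F. ramosissima the 8 calls became 0 with species weights and 0 with the species alone, and in F. robusta the 10 became 3 and 0. The shares of all rows called were 0.719% and 0.0222% in F. ramosissima, and 0.83% and 0.0131% in F. robusta. Without F. trinervia high light replicate 2 and control replicate 3, chosen after seeing the data, 4 members were lower and 0 higher, and the difference in response was called in 5 members against F. robusta and 7 against F. ramosissima. The shares over all rows were 1.12%, 0.712%, 1.38% and 1.72%, in the same order. Leaving out single libraries gave 3 to 19 lower and 0 to 1 higher in F. trinervia, 1 to 13 calls in F. ramosissima, 1 to 11 in F. robusta, 6 to 46 for the difference against F. robusta and 5 to 18 against F. ramosissima. Over all rows the shares were 0.811% to 3.87% lower and 0.258% to 2.27% higher in F. trinervia. They were 1.32% to 7.17% in F. ramosissima and 0.454% to 5.52% in F. robusta. For the differences they were 0.669% to 13% and 0.6% to 5.6%. The rule itself gave 112 rows after median-ratio scaling (77 of them members), 381 at 3 times and 124 at 5 times. The cause of these changes was not tested.

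With a replicate block, 26 members were lower and 1 higher in F. trinervia under high light, where 7.02% of all rows were lower and 1.81% higher. No count moved by more than 1.5 times with this block. The replicate numbers did not pair the samples, since the deviations of same-numbered F. trinervia libraries correlated at 0.664, −0.593 and −0.621. Depth is unknown for these TPM values, so a precision from depth could not be given, and low values are the least certain.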
